A study of Mus musculus with 12 samples.

Results

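The integrated stress response and the serine one-carbon pathway are described here through 33 genes, picked by symbol from a table of 19036 genes measured in mouse kidney, and all 33 were found. RNA of C57BL/6 mice, an inbred laboratory strain, was sequenced from whole kidney 72 h after cisplatin, a platinum-based cancer drug whose main side effect is damage to kidney tubules. The 12 libraries form 3 groups of 4. Vehicle mice received saline by intraperitoneal injection, cisplatin mice received 25 mg/kg cisplatin by the same route, and combination mice received 25 mg/kg cisplatin with 15 mg/kg of 84-B10, a compound known here by its code name, given for 48 h before cisplatin and daily afterwards. The labels disagree on whether the cisplatin group also had the 84-B10 pretreatment, and each library was placed by its treatment label. No group with 84-B10 alone was analysed, and age and sex are not given in the labels.

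The integrated stress response lowers general protein synthesis when a kinase phosphorylates the initiation factor eIF2, while translation of a few messages, Atf4 among them, goes up. ATF4 and its partners of the C/EBP family then switch on genes for amino acid supply, for transfer RNA charging and for feedback on the response itself. The unfolded protein response of the endoplasmic reticulum (ER) shares the kinase PERK with it and adds the sensors IRE1 and ATF6, which act mainly on chaperones and on ER-associated degradation, the disposal of misfolded proteins. Serine made from a glycolytic intermediate feeds one-carbon units into folate and becomes glycine, and cells use these units for purines and thymidylate. In cultured cells ATF4 switches on several enzymes of this route.

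After cisplatin the members split largely by role, but the folate enzymes moved in both directions. The transcription factors, the feedback genes, asparagine synthetase and the serine synthesis genes were higher in all 4 cisplatin libraries than in any vehicle library, except Stc2 and Psph, whose groups overlapped. The mitochondrial folate enzymes Mthfd2 and Mthfd1l rose, while Shmt1, Shmt2 and Mthfd1, which are abundant in the vehicle kidney, fell. Herpud1, a gene of ER-associated degradation, fell as well. Adding 84-B10 to cisplatin moved no member past the main test.

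Values are FPKM, fragment numbers scaled to transcript length and library size, as the authors deposited them. Differences are on the log2(FPKM + 1) scale, which understates changes of low genes, each with its standard error, and adjusted p-values come from limma with Benjamini-Hochberg adjustment over the 12428 genes that reached 1 FPKM in 4 or more libraries. Of the 33 members 31 entered this test, and Pycr1 and Aldh1l2 did not. Between cisplatin and vehicle 28 of the 31 passed an adjusted p of 0.05, 23 of them higher and 5 lower, against 78.1% of all genes tested, 56.3% higher and 21.8% lower. Most genes passed in this comparison, so the count of passing members says little by itself. A difference of at least 1 on the log2 scale was reached by 15 members, 13 higher and 2 lower, or 48.4% of them, against 16.9% of all genes, 12% higher and 4.84% lower. The median difference was 0.64 over the members tested and 0.26 over all genes. The 2 groups did not overlap for 24 of the 31 members, against 71.6% of all genes.

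The positive median of all genes depends on the scaling. After median-of-ratios scaling it was 0.005, the median of the members was 0.35, and 20 members passed as higher and 7 as lower. Over all genes this scaling moved the split from 6999 higher and 2711 lower to 4605 and 4613. With edgeR on the estimated counts of 10 libraries, 18 members were higher and 8 lower. All 15 members with a difference of at least 1 kept their direction and passed under every alternative that tested them, with adjusted p-values of at most 0.00451.

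**Figure D1:**
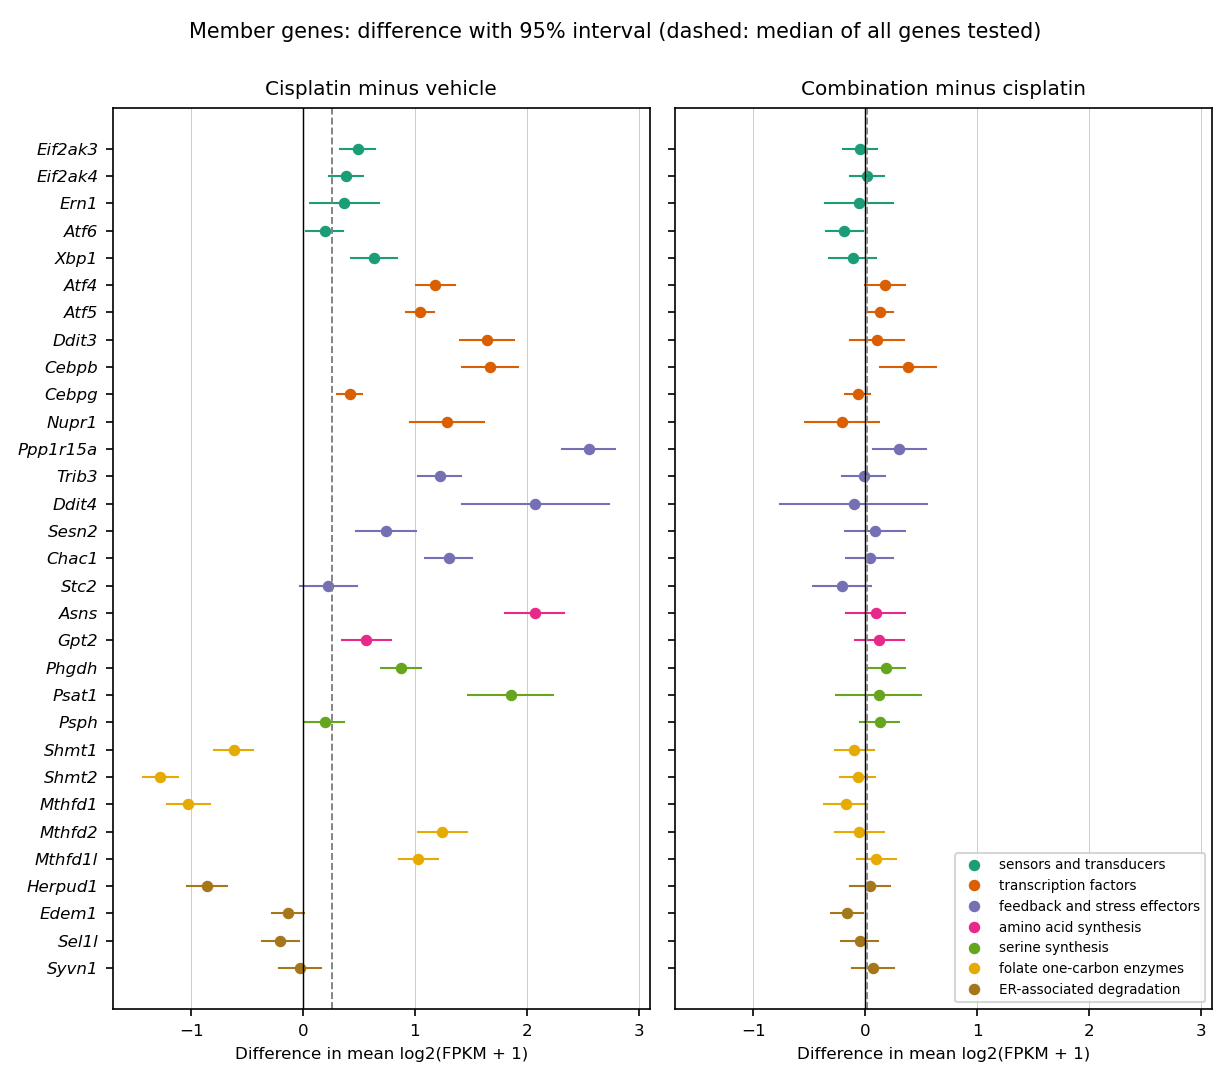
Difference in mean log2(FPKM + 1) for the 31 tested members, cisplatin minus vehicle on the left and combination minus cisplatin on the right. Points are differences and bars 95% intervals, colours mark the role, and the dashed line is the median of all genes tested. On the left the points spread from Shmt2 at −1.27 to Ppp1r15a at 2.55, and on the right they lie between −0.21 and 0.39.

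The libraries also differ in the cells they sample. In whole tissue, fewer cells of a type and less RNA per cell cannot be told apart. The summed FPKM of 10 proximal tubule markers was 69620 to 77690 in vehicle, 9551 to 14710 in cisplatin and 6930 to 8685 in combination libraries, and all 10 markers fell after cisplatin. The androgen-regulated gene Kap made up most of these sums, at 61237 to 69267 in vehicle and 7801 to 12789 in cisplatin libraries. The sum of 6 markers of the thick ascending limb and distal tubule went from 1505 to 1753 in vehicle down to 307.9 to 569 after cisplatin. The sum of 10 leukocyte markers was 19.11 to 21.92 in vehicle and 93.02 to 113.8 in cisplatin libraries, of which the macrophage gene Cd68 made up 50.41 to 75.35, whereas the pan-leukocyte gene Ptprc was lower, at 1.28 to 1.70 and 0.94 to 1.16. Markers of fibroblasts summed to 15.12 to 23.77 and 39.73 to 89.37, and those of cycling cells to 30.91 to 32.18 and 61.99 to 68.28, of which the replication factor Pcna made up 25.73 to 26.85 and 47.98 to 55.54. The part of these shifts in the differences below was not tested.

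Promoters of 5 members are shown because they carry short motifs known to bind factors of these responses, in genes that moved in different directions. They are the 250 bases before the start of each gene, from RefSeq on build GRCm38.p6, on the strand of the gene, and capitals mark the motif. RefSeq entries were at hand for 31 of the 33 members, and the window searched reached from 250 bases before to 50 bases after the start. The C/EBP-ATF motif TGATGNAA, read on both strands, lies in Chac1, Asns and Nupr1, which rose, and in Herpud1, which fell. Herpud1 also holds the ER stress element II, which reads ATTGGGCCACG there and was searched on both strands as ATTGG and CCACG with any 1 base between them. Syvn1, which did not pass, holds the ER stress element, which reads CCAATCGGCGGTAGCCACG there and was searched on both strands as CCAAT and CCACG with any 9 bases between them. No match of 1 motif overlaps a match of another in these windows.
Chac1 (chr2:119350992-119351241, plus strand): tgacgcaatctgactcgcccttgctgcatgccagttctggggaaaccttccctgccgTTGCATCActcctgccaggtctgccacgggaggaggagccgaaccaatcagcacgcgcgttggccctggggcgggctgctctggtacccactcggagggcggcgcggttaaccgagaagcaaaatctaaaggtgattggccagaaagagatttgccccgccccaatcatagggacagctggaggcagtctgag
Asns (chr6:7693210-7693459, minus strand): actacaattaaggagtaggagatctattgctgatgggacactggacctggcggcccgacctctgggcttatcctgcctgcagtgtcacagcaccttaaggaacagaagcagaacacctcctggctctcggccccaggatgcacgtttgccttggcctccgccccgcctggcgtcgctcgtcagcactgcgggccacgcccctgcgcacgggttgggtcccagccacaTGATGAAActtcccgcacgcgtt
Nupr1 (chr7:126625471-126625720, minus strand): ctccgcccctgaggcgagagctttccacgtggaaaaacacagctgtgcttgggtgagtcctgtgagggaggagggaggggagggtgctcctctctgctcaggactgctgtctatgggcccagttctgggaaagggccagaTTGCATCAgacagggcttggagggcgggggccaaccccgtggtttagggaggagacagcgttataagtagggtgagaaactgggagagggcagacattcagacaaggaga
Herpud1 (chr8:94386179-94386428, plus strand): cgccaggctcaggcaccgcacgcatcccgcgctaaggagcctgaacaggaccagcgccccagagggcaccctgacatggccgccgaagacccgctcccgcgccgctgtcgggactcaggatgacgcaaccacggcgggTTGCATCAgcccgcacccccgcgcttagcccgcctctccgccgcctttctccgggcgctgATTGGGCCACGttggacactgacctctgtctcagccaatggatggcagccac
Syvn1 (chr19:6046326-6046575, plus strand): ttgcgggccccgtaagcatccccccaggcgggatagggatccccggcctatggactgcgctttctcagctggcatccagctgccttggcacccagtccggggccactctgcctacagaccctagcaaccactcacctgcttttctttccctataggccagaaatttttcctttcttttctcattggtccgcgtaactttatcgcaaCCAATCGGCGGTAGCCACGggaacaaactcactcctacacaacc

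The C/EBP-ATF motif was found in 6 of the 31 member promoters, those of Nupr1, Trib3, Chac1, Asns, Pycr1 and Herpud1, and in 4.51% of 27025 genes with a RefSeq window of this length. Its first base lies 193 bases before the start in Chac1, 110 in Nupr1, 112 in Herpud1 and 23 in Asns. In Trib3 it lies after the start. The ER stress element was found in 0.137% of all windows, in Syvn1 alone among the members, and in 9 of 18 windows of ER chaperones and folding enzymes. ER stress element II was found in 0.0444% of all windows. These matches describe letters, and binding was not measured.

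The kinases and sensors had a median difference of 0.38, or 0.18 after median-of-ratios scaling. Eif2ak3 encodes PERK, the eIF2 kinase of the ER, and measured 7.08, 7.03, 7.39 and 6.75 FPKM in vehicle libraries 1 to 4 and 11.03, 11.36, 9.40 and 9.58 in cisplatin libraries 1 to 4. Its groups did not overlap, with a difference of 0.49 ± 0.07 (adjusted p = 2.63e-05). Eif2ak4 encodes GCN2, the eIF2 kinase that senses amino acid shortage, and ranged from 1.88 to 2.08 in vehicle and from 2.48 to 3.13 in cisplatin libraries, a difference of 0.38 ± 0.07 (adjusted p = 2.07e-04). On the estimated counts of 10 libraries edgeR gave 0.15 for Eif2ak3 (adjusted p = 0.105) and 0.21 for Eif2ak4 (adjusted p = 0.0865), so both calls were lost there.

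Ern1 encodes IRE1, which splices the Xbp1 message. Its cisplatin libraries fell into a higher pair, 4.73 and 4.48 in libraries 1 and 2, and a lower pair, 2.48 and 2.95 in libraries 3 and 4, against 2.33 to 2.76 in vehicle. The ER sensor Atf6 showed the same pairs, 9.40 and 9.12 against 7.63 and 7.52, with vehicle at 6.89 to 7.57. Both passed, Ern1 by 0.37 ± 0.14 (adjusted p = 0.0296) and Atf6 by 0.19 ± 0.08 (adjusted p = 0.0329). Without cisplatin library 1 the adjusted p was 0.0974 for Ern1 and 0.104 for Atf6, and without cisplatin library 2 it was 0.0963 and 0.0954. Leaving out vehicle library 2 or 4 also ended both calls, and leaving out vehicle library 3 ended that of Ern1 (adjusted p = 0.0516). Cisplatin libraries 1 and 2 also have the lowest FPKM totals, 0.525 M being the lowest and 0.569 M the highest of all 12, and no usable count column. With edgeR on the other 10 libraries the sign turned, to −0.17 for Ern1 (adjusted p = 0.298) and −0.20 for Atf6 (adjusted p = 0.0339). After median-of-ratios scaling Atf6 stood at −0.06.

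Xbp1, the factor that IRE1 activates by splicing, was the most abundant gene of this group. It measured 73.45, 78.79, 85.58 and 100.20 FPKM in vehicle, 117.01, 129.23, 149.53 and 129.97 in cisplatin, and 115.59, 116.67, 135.87 and 117.14 in combination libraries. Every library that received cisplatin was above every vehicle library, and the difference was 0.64 ± 0.10 (adjusted p = 3.77e-05). FPKM per gene do not separate spliced from unspliced Xbp1.

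All 6 transcription factors rose, with a median difference of 1.24. Over all genes tested 56.3% passed as higher, with a median of 0.26. Atf4, the central factor of the response, measured 45.74, 44.38, 55.87 and 43.03 FPKM in vehicle, 96.23, 112.61, 114.83 and 109.03 in cisplatin, and 119.44, 130.69, 115.02 and 124.12 in combination libraries. Its mean was 2.29 times that of vehicle after cisplatin, a difference of 1.18 ± 0.08 (adjusted p = 1.75e-08). Atf5, a related factor that is also controlled at translation, went from 6.09, 6.21, 6.23 and 5.42 to 12.37, 13.09, 13.90 and 14.34, and stood at 14.56, 14.81, 14.87 and 14.83 in combination libraries. The 4 combination libraries lay close together, and cisplatin exceeded vehicle by 1.05 ± 0.06 (adjusted p = 1.56e-09).

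Ddit3 encodes CHOP, a factor tied to cell death under lasting stress. It measured 10.30, 12.07, 13.24 and 12.49 FPKM in vehicle, 31.01, 41.32, 42.91 and 44.47 in cisplatin, and 37.37, 48.25, 45.62 and 40.38 in combination libraries. The groups lay far apart, with a difference of 1.64 ± 0.11 (adjusted p = 1.72e-08). Cebpb, a C/EBP factor of inflammation and stress, went from 5.96, 4.84, 7.28 and 5.23 to 21.14, 19.92, 22.11 and 19.15, and stood at 29.71, 26.09, 31.71 and 22.12 in combination libraries. The cisplatin group exceeded vehicle by 1.67 ± 0.12 (adjusted p = 1.87e-08).

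Nupr1, a small chromatin-associated stress protein, measured 10.01, 9.94, 7.44 and 8.81 FPKM in vehicle, 19.52, 22.06, 34.20 and 20.25 in cisplatin, and 16.63, 21.08, 22.12 and 21.13 in combination libraries. Cisplatin library 3 stood highest, the groups did not overlap, and the difference was 1.29 ± 0.15 (adjusted p = 3.81e-06). Cebpg, a C/EBP partner of ATF4, rose least, from 7.93 to 8.86 in vehicle to 10.82 to 12.15 after cisplatin, by 0.42 ± 0.05 (adjusted p = 4.99e-06). With edgeR on 10 libraries its difference was 0.15 (adjusted p = 0.0535).

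**Figure D2:**
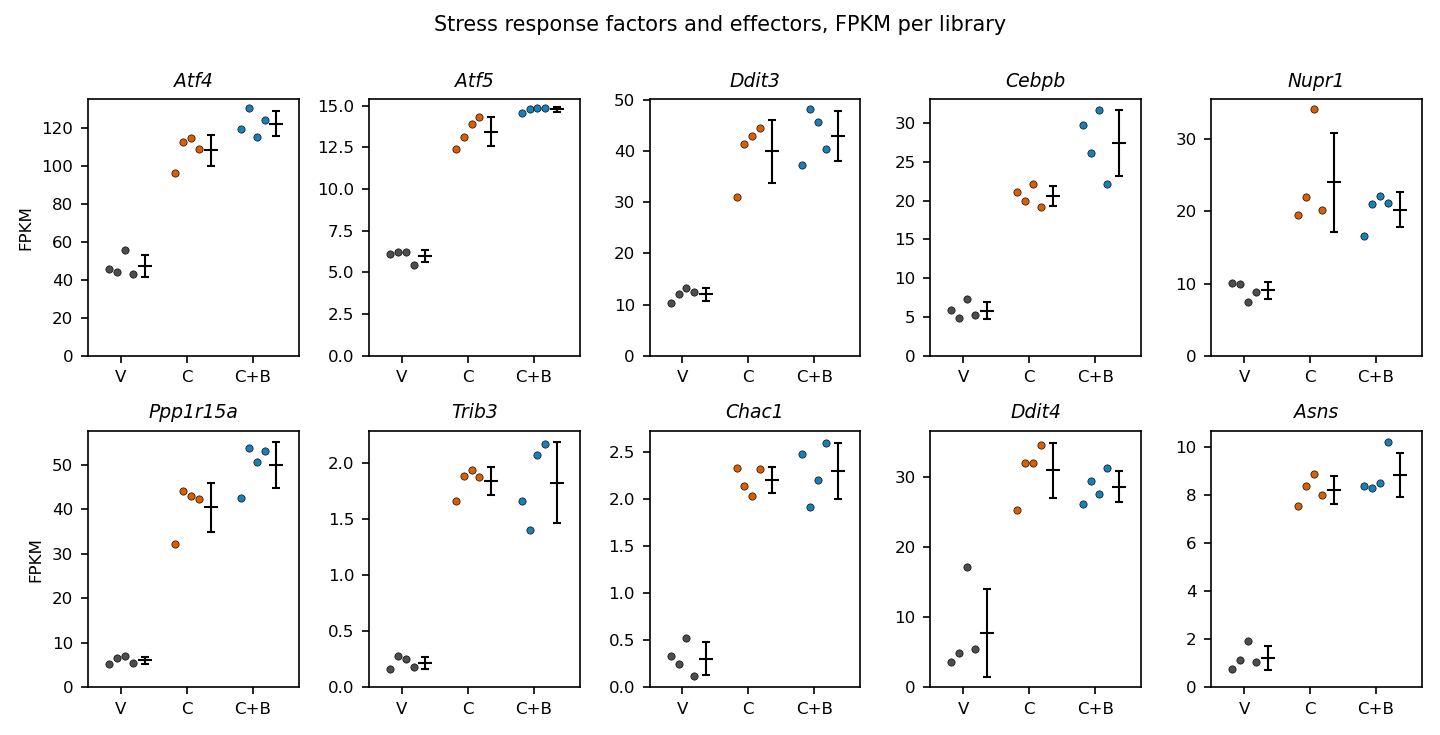
FPKM of 10 stress response genes in each library, for vehicle (V), cisplatin (C) and combination (C+B), with the axis of each panel starting at 0. Points are libraries 1 to 4 from left to right, and the bar beside them is the mean ± SD (n = 4). In each of the 10 panels every cisplatin and combination library lies above every vehicle library, and vehicle library 3 of Ddit4, at 17.18, lies far above the other vehicle libraries.

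Of 6 genes of feedback and stress effects 5 passed, all higher, with a median difference of 1.26 over the 6. The median of all genes was 0.26, and 56.3% of them passed as higher. Ppp1r15a encodes GADD34, which directs a phosphatase to eIF2 and so ends the response. It measured 5.31, 6.55, 6.97 and 5.38 FPKM in vehicle, 32.27, 44.14, 43.12 and 42.34 in cisplatin, and 42.54, 53.75, 50.77 and 53.03 in combination libraries. Its difference of 2.55 ± 0.11 was the largest among the tested members on the log2(FPKM + 1) scale (adjusted p = 1.75e-10). The ratio of mean FPKM was 6.69 for Ppp1r15a, 6.71 for Asns, 7.18 for the low Chac1 and 8.45 for the low Trib3. For Ppp1r15a cisplatin library 1 was the lowest of its group.

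Trib3, a pseudokinase that holds back ATF4 and CHOP, was low in vehicle, at 0.16, 0.28, 0.25 and 0.18 FPKM, and measured 1.66, 1.88, 1.94 and 1.87 after cisplatin and 1.66, 1.40, 2.07 and 2.17 in combination libraries. The difference was 1.22 ± 0.09 (adjusted p = 2.91e-08). Chac1, which breaks down glutathione, had a like pattern, at 0.33, 0.25, 0.53 and 0.12 in vehicle, 2.33, 2.14, 2.04 and 2.32 in cisplatin, and 2.48, 1.92, 2.21 and 2.60 in combination libraries. No vehicle library came near the others, and the difference was 1.30 ± 0.10 (adjusted p = 3.59e-08). These are 2 of the 4 genes with the C/EBP-ATF motif that rose.

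Ddit4, an inhibitor of the growth kinase mTORC1, measured 3.61, 4.95, 17.18 and 5.44 FPKM in vehicle, 25.31, 32.01, 31.98 and 34.63 in cisplatin, and 26.20, 29.46, 27.58 and 31.28 in combination libraries. Vehicle library 3 stood apart from its group. The difference was 2.08 ± 0.31 (adjusted p = 2.95e-05), and 2.50 without that library. Sesn2, a sestrin that also restrains mTORC1 and senses leucine, went from 28.48, 25.32, 19.12 and 21.46 to 44.19, 44.10, 33.02 and 38.88, and stood at 41.58, 40.28, 38.50 and 49.85 in combination libraries. It had been measurable in every vehicle kidney and rose by 0.74 ± 0.12 (adjusted p = 8.66e-05). Stc2, a secreted glycoprotein induced by ER stress, stayed between 0.52 and 1.35 FPKM in vehicle and cisplatin libraries and did not pass, with a difference of 0.23 ± 0.12 (adjusted p = 0.0963), and 0.30 (adjusted p = 0.0423) without cisplatin library 4.

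Among the genes of amino acid synthesis Asns, which makes asparagine and is a standard readout of amino acid shortage, measured 0.78, 1.14, 1.92 and 1.05 FPKM in vehicle, 7.54, 8.38, 8.88 and 7.99 in cisplatin, and 8.37, 8.28, 8.47 and 10.18 in combination libraries. Its mean after cisplatin was 6.71 times that of vehicle, a difference of 2.07 ± 0.12 (adjusted p = 3.92e-09). Gpt2, the mitochondrial alanine aminotransferase, was the most abundant gene of this group. It measured 11.15, 12.44, 14.33 and 15.62 in vehicle, 17.95, 22.91, 19.55 and 20.54 in cisplatin, and 22.28, 24.53, 22.73 and 19.24 in combination libraries, and rose by 0.57 ± 0.10 (adjusted p = 1.77e-04). Pycr1, a proline synthesis enzyme of mitochondria, stayed at or below 0.71 FPKM in every library and did not enter the test, and an exact two-sided permutation test of cisplatin against vehicle gave p = 0.171.

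The 3 enzymes that make serine from a glycolytic intermediate differed in size of change. Psat1, the aminotransferase of the second step, measured 17.37, 18.09, 12.81 and 13.55 FPKM in vehicle, 42.17, 73.74, 61.61 and 58.91 in cisplatin, and 47.39, 79.09, 70.28 and 60.08 in combination libraries. It rose by 1.86 ± 0.18 (adjusted p = 4.3e-07), to a mean of 59.1 ± 13.0 (SD, n = 4) in cisplatin libraries, of which library 1 was the lowest. Phgdh, the dehydrogenase of the first step, rose from 5.38 to 6.93 in vehicle to 11.46 to 13.34 after cisplatin, by 0.88 ± 0.08 (adjusted p = 3.37e-07), and stood at 12.69 to 16.07 in combination libraries.

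Psph, the phosphatase of the last step, overlapped between the groups. It ranged from 9.89 to 12.99 FPKM in vehicle and from 11.08 to 14.15 in cisplatin libraries, a difference of 0.19 ± 0.08 (adjusted p = 0.0415). After median-of-ratios scaling it stood at −0.08, and the call was also lost when any 1 of 9 libraries was left out, all but vehicle library 2, cisplatin library 1 and combination library 3, with adjusted p-values of 0.0503 to 0.132. In combination libraries it ranged from 13.43 to 14.09, all above vehicle, by 0.32 ± 0.08 (adjusted p = 0.00235), which median-of-ratios scaling reduced to 0.04 (adjusted p = 0.651).

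Folate enzymes moved in both directions, 2 higher and 3 lower of 5 tested. Shmt2, the mitochondrial enzyme that passes a carbon from serine to folate, was the most abundant, at 158.23, 167.02, 154.11 and 163.36 FPKM in vehicle, 72.09, 60.77, 69.28 and 61.79 in cisplatin, and 71.87, 58.35, 59.12 and 62.82 in combination libraries. It fell to 0.411 of the vehicle mean, a difference of −1.27 ± 0.07 (adjusted p = 2.77e-09). Its cytosolic counterpart Shmt1 ranged from 19.47 to 20.58 in vehicle, from 11.57 to 14.86 in cisplatin and from 10.81 to 13.25 in combination libraries, a difference of −0.62 ± 0.08 (adjusted p = 9.25e-06). Mthfd1, the cytosolic enzyme with several folate activities, measured 86.58, 85.93, 80.36 and 93.27 in vehicle, 48.84, 40.19, 40.63 and 38.72 in cisplatin, and 42.55, 33.04, 33.72 and 39.56 in combination libraries. No treated library reached the vehicle range, and Mthfd1 fell by 1.03 ± 0.09 (adjusted p = 1.76e-07).

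Of 3 mitochondrial folate enzymes that were low in vehicle, Mthfd2 and Mthfd1l rose. Mthfd2, a dehydrogenase and cyclohydrolase typical of embryonic and proliferating cells, measured 0.86, 1.04, 1.75 and 1.35 FPKM in vehicle, 3.90, 4.65, 4.48 and 4.10 in cisplatin, and 4.27, 4.25, 3.97 and 3.87 in combination libraries, a difference of 1.24 ± 0.10 (adjusted p = 1.03e-07). Mthfd1l, which releases formate from mitochondria, went from 0.57, 0.72, 0.62 and 0.67 to 2.00, 2.35, 2.31 and 2.82, and stood at 2.42, 2.81, 2.33 and 2.86 in combination libraries, a difference of 1.03 ± 0.08 (adjusted p = 6.76e-08). Aldh1l2, which oxidises formyl-folate in mitochondria, measured 0.49, 0.38, 0.49 and 0.60 in vehicle and 1.2, 0.81, 0.81 and 0.93 in cisplatin libraries. These groups did not overlap, and an exact two-sided permutation test gave p = 0.0286, the smallest that its 70 arrangements allow, and 0.0858 adjusted over 6 tests. The summed cycling-cell markers, given above, were also higher in all cisplatin libraries than in any vehicle library. Of the 7 markers only Mki67 overlapped, at 0.15 to 0.33 in vehicle and 0.25 to 0.65 in cisplatin libraries. The part of these markers in the rise of Mthfd2 was not tested.

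Even after these opposite shifts Shmt2 stayed far above Mthfd2 on the FPKM scale, which is per transcript length. Mthfd2 FPKM were 0.544 to 1.14% of Shmt2 FPKM in vehicle, 5.41 to 7.65% in cisplatin and 5.94 to 7.28% in combination libraries. This ratio was chosen after its values were seen and has no test.

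**Figure D3:**
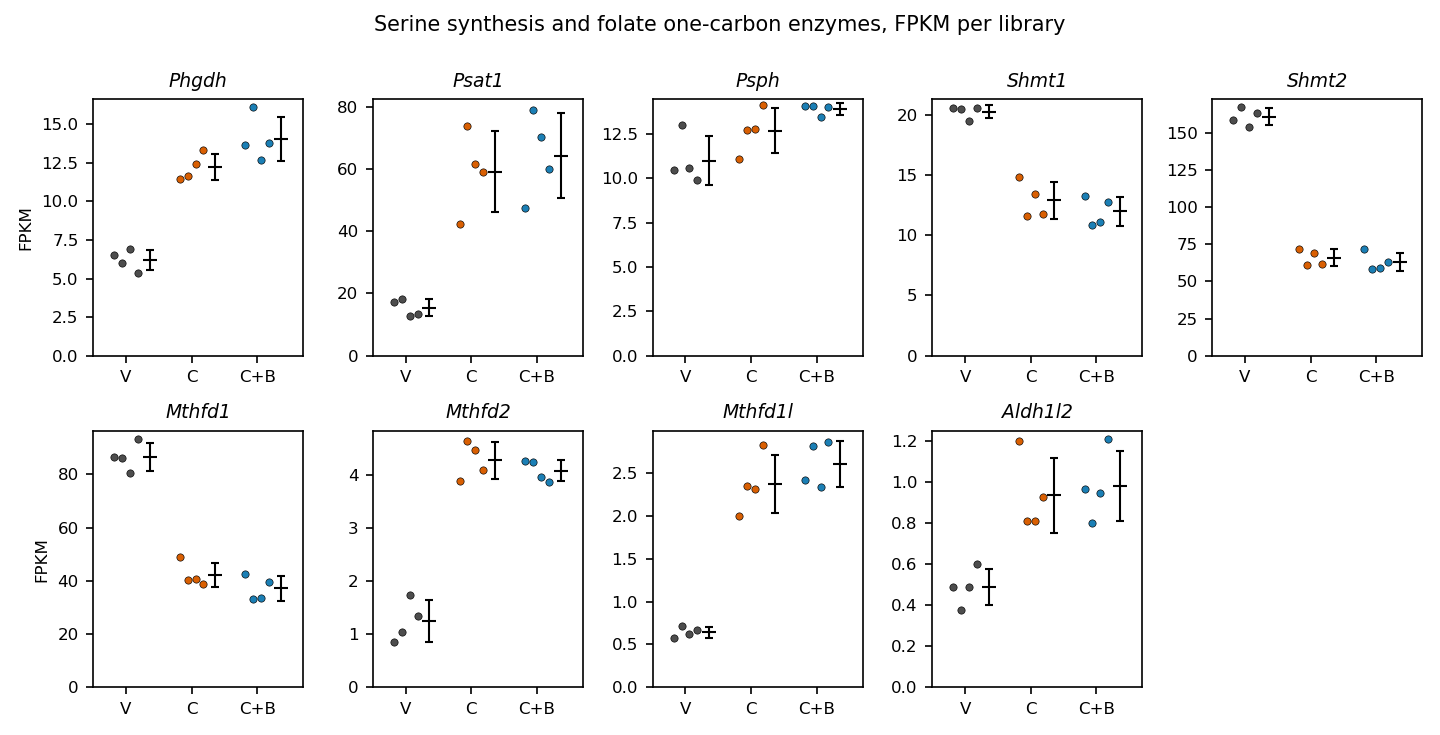
FPKM of 9 serine and folate genes in each library, for vehicle (V), cisplatin (C) and combination (C+B), with each axis starting at 0. Points are libraries 1 to 4 and the bar is the mean ± SD (n = 4). Shmt1, Shmt2 and Mthfd1 are lower in all 8 libraries that received cisplatin, and the other genes except Psph are higher. For Psph the cisplatin libraries overlap with vehicle, and all combination libraries lie above vehicle.

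The 4 genes of ER-associated degradation did not rise. Herpud1 encodes HERP, a membrane protein of the degradation complex that ER stress induces in cultured cells. It measured 247.95, 239.44, 268.95 and 226.59 FPKM in vehicle, 150.17, 138.98, 122.91 and 129.25 in cisplatin, and 143.28, 134.72, 123.36 and 158.06 in combination libraries. Each treated library was below each vehicle library, and Herpud1 fell by 0.86 ± 0.08 (adjusted p = 5.32e-07). Its promoter, shown above, holds 2 of the motifs searched. Ddit3 FPKM were 4.15 to 5.51% of Herpud1 FPKM in vehicle, 20.6 to 34.9% in cisplatin and 25.5 to 37% in combination libraries, a ratio also chosen after its values were seen.

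Sel1l, the adaptor of the ubiquitin ligase of this pathway, ranged from 18.84 to 23.75 FPKM in vehicle and 17.05 to 19.77 in cisplatin libraries, and passed by a small margin, at −0.20 ± 0.08 (adjusted p = 0.0249). Leaving out any 1 of vehicle libraries 1, 2 and 3 or cisplatin libraries 3 and 4 ended the call, with adjusted p-values of 0.051 to 0.0806. Edem1, a lectin that hands misfolded glycoproteins to degradation, ranged from 15.03 to 17.63 in vehicle and 13.12 to 15.84 in cisplatin libraries (difference −0.13 ± 0.07, adjusted p = 0.0819), and was lower in combination libraries than in vehicle, at 12.64 to 13.77 (−0.30 ± 0.07, adjusted p = 0.001). Syvn1 encodes the ubiquitin ligase HRD1 and showed a difference of −0.02 ± 0.09 (adjusted p = 0.808). Median-of-ratios scaling brought both past the test, Edem1 at −0.41 (adjusted p = 8.14e-05) and Syvn1 at −0.30 (adjusted p = 0.00775), and without vehicle library 3, the highest at 30.42 FPKM, Syvn1 stood at 0.08. Edem1 also passed without vehicle library 4 (adjusted p = 0.0429) or cisplatin library 1 (adjusted p = 0.0446).

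Other genes of the pathways were read from 4 lists that do not include the members. Over all genes tested 56.3% passed as higher and 21.8% as lower after cisplatin. Their median was 0.26, or 0.005 after median-of-ratios scaling. Of 21 ER chaperones and folding enzymes 2 rose, 10 fell and 9 did not pass after cisplatin, and the list median was −0.19, or −0.47 after median-of-ratios scaling. Derl3, a channel component of ER-associated degradation, fell by 0.95 ± 0.15 (adjusted p = 5.75e-05), from 1.40 to 3.17 FPKM to 0.28 to 0.80. Hsp90b1, the ER chaperone GRP94, fell by 0.46 ± 0.07 (adjusted p = 6.49e-05). Dnajb9, a co-chaperone that restrains IRE1, rose by 0.49 ± 0.10 (adjusted p = 4.59e-04), or 0.20 after median-of-ratios scaling (adjusted p = 0.0737). Calr, the calcium-binding chaperone calreticulin and the most abundant gene that did not pass, stood at −0.09 ± 0.07 (adjusted p = 0.259), and at −0.38 after that scaling (adjusted p = 6.43e-04). Hspa5, the master chaperone BiP, was named after its values were seen and ranged from 195.75 to 297.32 in vehicle and 202.22 to 206.9 in cisplatin libraries, a difference of −0.22 ± 0.10 (adjusted p = 0.0522). Hspa5 passed as lower after median-of-ratios scaling, at −0.51 (adjusted p = 4.21e-04). On the counts of 10 libraries it passed with edgeR at −0.51 (adjusted p = 0.00358) and with DESeq2 at −0.52 (adjusted p = 1.77e-04). Without vehicle library 4 both passed, Calr at −0.16 (adjusted p = 0.0426) and Hspa5 at −0.31 (adjusted p = 0.00432).

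Of 20 further regulators and ATF4 targets tested, 16 rose, 3 fell and 1 did not pass, and the list median was 0.57, or 0.295 after median-of-ratios scaling. Gdf15, a circulating stress cytokine, rose from 2.53 to 5.79 FPKM to 198.48 to 252.72, by 5.54 ± 0.17 (adjusted p = 6.79e-12). Atf3, a repressor that ATF4 and other stress pathways induce, rose from 0.28 to 0.84 to 16.61 to 21.89, by 3.87 ± 0.11 (adjusted p = 3.08e-12). Eif4ebp1, a repressor of cap-dependent translation, rose from 12.99 to 14.35 to 67.98 to 89.64, by 2.48 ± 0.08 (adjusted p = 6.59e-12). Ppp1r15b, the constitutive counterpart of Ppp1r15a, did not pass, at 0.05 ± 0.07 (adjusted p = 0.482), and stood at −0.22 after median-of-ratios scaling (adjusted p = 0.00626).

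Cytosolic aminoacyl-tRNA synthetases, which charge transfer RNA and include many ATF4 targets, rose in 18 of 20 cases, none fell, and their median was 0.36. Of all genes 56.3% passed as higher, with a median of 0.26. After median-of-ratios scaling the median of the synthetases was 0.09 and that of all genes 0.005. Vars rose by 1.13 ± 0.05 (adjusted p = 3.43e-10), Cars by 0.95 ± 0.09 (adjusted p = 6.41e-07) and Rars by 0.66 ± 0.05 (adjusted p = 9.1e-08). Dars, the enzyme for aspartate and the most abundant that did not pass, stood at −0.10 ± 0.05 (adjusted p = 0.0689), and at −0.38 after that scaling (adjusted p = 1.37e-05). Without cisplatin library 3 it passed at −0.12 (adjusted p = 0.0475).

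Of 25 other folate and glycine enzymes 8 rose, 13 fell and 4 did not pass, and the list median was −0.23, or −0.52 after median-of-ratios scaling. Glyctk, glycerate kinase, fell by 2.00 ± 0.15 (adjusted p = 3.17e-08), and Sardh, which oxidises sarcosine in mitochondria, by 1.50 ± 0.11 (adjusted p = 4.48e-08). Gldc, the glycine decarboxylase of the cleavage system, moved the other way, from 42.34 to 57.35 FPKM in vehicle to 101.54 to 144.31 in cisplatin libraries, by 1.22 ± 0.13 (adjusted p = 1.36e-06), and was named after its values were seen. Fpgs, which adds glutamate tails to folate, differed by −0.003 ± 0.08 (adjusted p = 0.973), and by −0.29 after median-of-ratios scaling (adjusted p = 0.00551). Proximal tubule markers fell in all 10 cases in the same libraries, and their part in these falls was not tested.

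**Figure D4:**
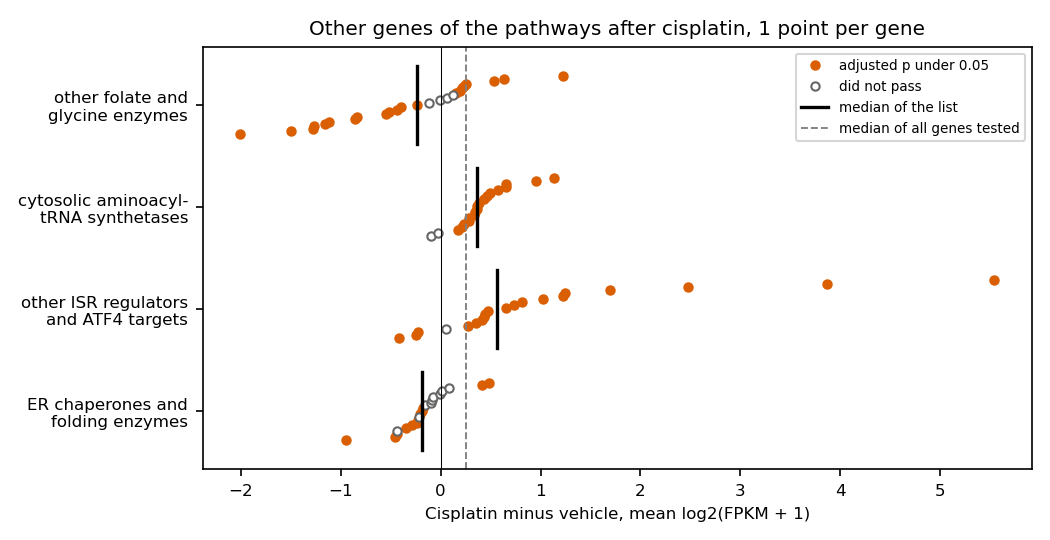
Difference in mean log2(FPKM + 1) between cisplatin and vehicle for the genes of 4 pathway lists that exclude the members, 1 point per gene. Filled points passed an adjusted p of 0.05, black bars are list medians and the dashed line is the median of all genes tested, 0.26. The medians of ER chaperones (−0.19) and of folate and glycine enzymes (−0.23) lie below that line, and those of transfer RNA synthetases (0.36) and other stress response genes (0.57) above it.

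The comparison of combination with cisplatin asks whether 84-B10 changed these levels. No member passed, with limma on 31 members or with edgeR or DESeq2 on the 33 members in the counts of 10 libraries, against 2.21% of all genes in limma. The counts hold only libraries 3 and 4 of the cisplatin group, so the count fits could detect less here. In limma an unadjusted p under 0.05 was reached by 7 of the 31, against 14.8% of all genes. The differences lay between −0.21 and 0.39 with a median of 0.015, and their 95% intervals between −0.77 and 0.64. These intervals leave room for moderate differences in both directions, widest for Ddit4.

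In 3 members every combination library was higher than every cisplatin library, Atf4, Atf5 and Cebpb, whose values are given above, and in none was every one lower. Over all genes 8.24% did not overlap, 4.01% with combination higher. Atf4 was higher by 0.18 ± 0.08 (adjusted p = 0.334), Atf5 by 0.13 ± 0.06 (adjusted p = 0.302) and Cebpb by 0.39 ± 0.12 (adjusted p = 0.127), the smallest adjusted p among the members. Ppp1r15a, the phosphatase subunit, differed by 0.30 ± 0.11 (adjusted p = 0.215). Without combination library 4 the adjusted p of Cebpb was 0.0486. With the replicate number as a block Cebpb (adjusted p = 0.0142) and Ppp1r15a (adjusted p = 0.0396) passed, though the numbers were not taken as pairing.

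In the pathway lists 6 genes passed between combination and cisplatin. Among other stress response genes, Slc3a2, the shared heavy chain of several amino acid exchangers, measured 192.75, 199.62, 218.00 and 201.90 FPKM in cisplatin and 237.85, 235.76, 229.92 and 239.99 in combination libraries, higher by 0.22 ± 0.05 (adjusted p = 0.0436). That call was lost when any 1 of 11 libraries was left out, all but cisplatin library 3, with adjusted p-values of 0.0516 to 0.115. It was also lost after median-of-ratios scaling (adjusted p = 0.0645), with the replicate number as a block (adjusted p = 0.0869) and with edgeR on 10 libraries (adjusted p = 0.159). Cth, which makes cysteine from cystathionine, measured 76.57, 63.38, 68.01 and 72.06 in cisplatin and 48.50, 40.55, 39.75 and 45.25 in combination libraries, lower by 0.67 on the log2 scale, at −0.67 ± 0.07 (adjusted p = 1.81e-04). The groups of both genes did not overlap.

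Of the folate and glycine list 3 genes were lower with 84-B10. Dmgdh, which demethylates dimethylglycine in mitochondria, measured 24.12, 16.11, 17.12 and 19.32 FPKM in cisplatin and 10.86, 6.72, 7.11 and 9.36 in combination libraries (−1.09 ± 0.14, adjusted p = 6.28e-04). Cbs, which condenses homocysteine with serine, measured 43.98, 28.49, 32.77 and 38.10 and then 23.72, 16.32, 15.62 and 22.47 (−0.85 ± 0.14, adjusted p = 0.00538). Both genes had already fallen after cisplatin, to 19.17 ± 3.56 from 47.18 ± 3.40 for Dmgdh and to 35.84 ± 6.70 from 78.14 ± 5.95 for Cbs (SD, n = 4). Cth (−0.42, adjusted p = 1.46e-04) and Aldh1l1, the cytosolic formyl-folate dehydrogenase (−0.44, adjusted p = 4.04e-06), had also fallen after cisplatin. P4hb, a disulfide isomerase among the ER chaperones, had not (−0.006, adjusted p = 0.919). With 84-B10 Aldh1l1 was lower by a smaller step (−0.25 ± 0.05, adjusted p = 0.0234), and P4hb was lower (−0.25 ± 0.05, adjusted p = 0.0152). Leaving out cisplatin library 1 or 4 or combination library 2, 3 or 4 ended the call of Aldh1l1 (adjusted p up to 0.079), and leaving out cisplatin library 4 or combination library 3 that of P4hb (adjusted p up to 0.0654). With edgeR on 10 libraries P4hb did not pass either (adjusted p = 0.0655). Gldc was higher with 84-B10 by 0.35 ± 0.13 and did not pass (adjusted p = 0.23). On the counts of 10 libraries Gldc passed, at 0.57 with edgeR (adjusted p = 0.0303) and with DESeq2 (adjusted p = 3.11e-04). Gldc also passed when limma was restricted to those 10 libraries and used their FPKM, at 0.58 (adjusted p = 0.0408). The call was thus not specific to the counts. These fits lack cisplatin libraries 1 and 2, at 142.42 and 144.31 FPKM of Gldc, and keep 3 and 4, at 101.54 and 106.38. Of the 10 proximal tubule markers 3 were lower in combination than in cisplatin libraries, Kap (−0.82, adjusted p = 0.0103), Aqp1 (−0.82, adjusted p = 0.0426) and Slc27a2 (−0.48, adjusted p = 0.0469), and 7 did not pass, Slc34a1 among them (0.44, adjusted p = 0.464). The median of the 10 was −0.05. Of 6 thick ascending limb and distal tubule markers 2 were lower, Slc12a1 (−2.40, adjusted p = 9.06e-04) and Umod (−1.40, adjusted p = 0.00476). The other 4 did not pass. Their sum was 307.9 to 569 in cisplatin and 241.1 to 357 in combination libraries. Of 5 collecting duct markers 2 were higher, Foxi1 (0.44, adjusted p = 0.00175) and Scnn1g (0.25, adjusted p = 0.048), and 3 did not pass. The part of all these markers in the differences between combination and cisplatin was not tested.

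Combination against vehicle uses the same vehicle libraries as the first comparison. There 27 of 31 members passed, 21 higher and 6 lower, against 79.2% of all genes, 56.6% higher and 22.6% lower. Side by side, the difference from vehicle was 2.86 in combination and 2.55 in cisplatin libraries for Ppp1r15a, 1.36 and 1.18 for Atf4, −1.34 and −1.27 for Shmt2, and −0.81 and −0.86 for Herpud1. Edem1 passed here and not in the first comparison, whereas Ern1 (0.31 ± 0.14, adjusted p = 0.0583) and Atf6 (0.005 ± 0.08, adjusted p = 0.958) did not pass, although Ern1 passed without cisplatin library 1, 2 or 3 (adjusted p of 0.0259 to 0.0478). The direct differences between combination and cisplatin, given above, did not pass for these 3 genes.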

How the data were processed

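Total RNA of frozen kidney from 12 mice, 4 per group and labelled as biological replicates, was sequenced. The submitters' processing notes name HISAT2 2.0.4, Bowtie2 2.2.5 and RSEM 1.2.12 without roles. Genome build, annotation, library kit and strand handling: not given in the sources used here. Reads of genes that overlap on opposite strands or have close copies may be shared. The authors deposited FPKM of all 12 libraries, rounded to 2 decimals, and, per the file headers, estimated counts of 10 libraries, of which 34.3% are not whole. The headers abbreviate the groups, and were tied to the labels because the FPKM that the authors list per group are the means of the named columns. A further 14 per-sample columns were not used, 2 without a heading and 12 under a displaced heading, so cisplatin libraries 1 and 2 had no counts. Count totals were 15.76 to 16.52 M in vehicle, 17.74 and 18.15 M in cisplatin and 17.47 to 18.17 M in combination libraries.

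Values were tested as log2(FPKM + 1), with a pseudocount of 1, in R 4.3.3 with limma 3.58.1, with 3 group means, 9 residual degrees of freedom, a mean trend, and two-sided p-values adjusted by Benjamini-Hochberg over all 12428 genes tested in a comparison, with a threshold of 0.05. They reflect the spread among these libraries. Errors beside differences are standard errors, and those beside FPKM means are SD. Members under the filter were compared by exact permutation tests. No FPKM columns were identical, and counts of libraries within a group differed by more than sampling noise, with a chi-square of at least 4.34 per degree of freedom. Alternatives were no filter, a filter at a mean of 5 FPKM, a pseudocount of 0.1, scaling by median of ratios, a replicate block, leaving out each library, and edgeR 4.0.16 (14831 genes) and DESeq2 1.42.0 (18799 genes) on rounded estimated counts. A limma fit of the FPKM of those 10 libraries was chosen after seeing the data. The fits were tested on simulated data.

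Members and lists were chosen with earlier results of these data known. By rule, values in every library are given for members with a difference of at least 1 after cisplatin and for the most abundant member of each role. From each pathway list the rule names the 3 passing genes with the largest difference, those passing between combination and cisplatin, and the most abundant that did not pass. One gene that this rule names is not reported here and stays in the counts. Of 178 listed symbols 1 had no match and 3 matched by an older symbol. Markers of endothelium, podocytes, collecting duct and plasma cells were also summed. Endothelial sums were 25.9 to 34.59 in vehicle and 23.87 to 33.66 in cisplatin libraries, podocyte sums 60.09 to 73.07 and 34.4 to 59.01, collecting duct sums 264.4 to 317.4 and 309.9 to 395.6, and plasma cell sums 3.51 to 4.21 and 17.22 to 22.27. Of 5 collecting duct markers 2 passed as higher, Aqp2 and Foxi1, and 3 as lower. Most of the plasma cell sum was Sdc1, at 1.83 to 2.24 and 14.16 to 17.09. Mzb1 also rose, from 0.63 to 0.91 in vehicle to 2.56 to 5.5 in cisplatin libraries. Jchain was lower, at 0.81 to 1.15 and 0.22 to 0.50, and Tnfrsf17 was at 0 in every cisplatin library.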

Additional observations from a re-analysis of the deposited data

Results flagged for a closer look

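In 17 of 174 sets of 4 libraries, each set being 1 gene in 1 group, a single library stood apart from the other 3 past Dixon's 95% critical value for the gap to its nearest neighbour as a share of the range. Chance alone flags about 1 in 20 such sets.

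Vehicle library 3 was flagged for 5 genes. It had 17.18 FPKM of Ddit4 against 3.61 to 5.44 in the other vehicle libraries, and 0.84 of Atf3 against 0.28 to 0.36. It was also the higher one for Glyctk, at 75.15 against 66.59 to 66.90, and the lower one for Shmt1, at 19.47 against 20.45 to 20.58, and for Vars, at 9.13 against 9.91 to 10.01. Asns and Chac1 were also highest in this library within the vehicle group, at 1.92 and 0.53 FPKM.

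Hyou1, an ER chaperone, was low in cisplatin library 3, at 16.23 FPKM against 27.65 to 29.35, and in combination library 3, at 15.65 against 26.55 to 28.48. Gdf15 was high in cisplatin library 3, at 252.72 against 198.48 to 204.35, and low in combination library 4, at 172.62 against 237.8 to 248.51. Among the members, Ppp1r15a was low in cisplatin library 1, at 32.27 against 42.34 to 44.14. Xbp1 was high in combination library 3, at 135.87 against 115.59 to 117.14, and Psph was low there, at 13.43 against 14.04 to 14.09. Asns was high in combination library 4, at 10.18 against 8.28 to 8.47, as was Ppp1r15b, at 20.23 against 17.29 to 17.57. Calr was low in vehicle library 4, at 442.24 against 527.5 to 535.64. Derl3 was high in combination library 1, at 0.78 against 0.59 to 0.62, and Glyctk in cisplatin library 1, at 21.73 against 14.12 to 15.38.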

How the results depend on the processing

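Of 70 differences recomputed for named genes, 45 kept direction and side of the threshold under every alternative run, among them all 15 members with a difference of at least 1 after cisplatin. The following changed sign. With median-of-ratios scaling, edgeR and DESeq2 in that order, cisplatin minus vehicle became −0.06, −0.20 and −0.21 for Atf6, −0.08, −0.08 and −0.09 for Psph, and −0.22, −0.29 and −0.30 for Ppp1r15b. With edgeR and DESeq2 it became −0.17 and −0.18 for Ern1 and −0.02 and −0.04 for Stc2. With DESeq2 combination minus vehicle became −0.01 for Psph. With limma on the FPKM of the 10 libraries cisplatin minus vehicle became −0.02 for Ppp1r15b and 0.02 for Fpgs. Without vehicle library 3 Syvn1 became 0.08, and without vehicle library 4 or cisplatin library 2 Fpgs became 0.05 and 0.03, within a range of −0.05 to 0.05 over all single libraries left out. The cause was not tested. Genes passing between combination and cisplatin were 275, 441 with DESeq2, and 152 to 291 when 1 library was left out, with 152 without combination library 3, 158 without combination library 2 and 172 without cisplatin library 4. Members passing there were 0, and 0 to 1 when 1 library was left out. Leaving out 1 library gave 9302 to 9702 genes and 25 to 28 members between cisplatin and vehicle, and 9475 to 9901 genes and 27 to 28 members between combination and vehicle. Correlations of the deviations of same-numbered libraries ran from −0.076 to 0.079 between vehicle and the other groups and were 0.561, 0.249, 0.373 and −0.238 for numbers 1 to 4 between cisplatin and combination, so 3 of 12 pairs were above 0.1 and the numbers were not taken as pairing. In both other groups 3 of 12 libraries correlated best with their own number. With the replicate number as a block 2 members passed between combination and cisplatin, Cebpb (adjusted p = 0.0142) and Ppp1r15a (adjusted p = 0.0396). Counts of cisplatin libraries 1 and 2 were missing, and low FPKM limit Trib3, Chac1, Stc2, Pycr1 and Aldh1l2.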
